A study of Homo sapiens with 12 samples.

Results

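The 43 genes described here encode the transcription factor ATF4 with its partners, proteins of the amino acid stress response, enzymes that make serine, asparagine, proline, cysteine and folate one-carbon units, and cytosolic tRNA synthetases. They were taken as a list of gene symbols, matched to array probes through the annotation of the array, and kept when a probe had a detection p under 0.05 on at least 3 of 12 arrays. The brightest such probe stood for its gene. Of the 43 genes, 41 passed, out of 11517 genes that passed in the whole series. The 1 probe of CHAC1, which encodes an enzyme that degrades glutathione, was detected on 0 of 12 arrays, and CARS1, the cysteinyl-tRNA synthetase gene, was not analysed here. The chosen probes were detected on all 12 arrays, except that of ATF5, which was detected on 11.

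RNA came from LNCaP, a line of human prostate cancer cells with a working androgen response. All cells were first held for 48 h in medium deprived of steroids and were then treated for 48 h. The 4 groups were both drugs (100 nM Torin 1 and 10 nM R1881), 100 nM Torin 1 alone, 10 nM R1881 alone, and vehicle (ethanol and DMSO), with 3 arrays each, and the titles name the single-drug groups as vehicle plus drug. R1881 is a synthetic androgen, and Torin 1 blocks the catalytic site of the kinase mTOR, so both mTOR complexes are inhibited. It is 1 cell line at 1 dose and 1 time, and the labels do not say whether the 3 samples of a group were separate cultures, so the p-values measure only the spread between these samples.

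ATF4 is made mainly when the initiation factor eIF2 is phosphorylated, because open reading frames in its leader otherwise keep ribosomes from its start codon, and mTOR complex 1 is known to raise its output as well. With partners of the C/EBP family it switches on genes for amino acid synthesis, amino acid transport and the loading of tRNAs. Serine is made from a glycolytic intermediate by PHGDH, PSAT1 and PSPH, and SHMT1 and SHMT2 pass its side-chain carbon to folate, from which nucleotides are built. The tRNA synthetases attach each amino acid to its tRNA. Arrays measure RNA, so the amount and activity of the ATF4 protein were not measured.

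Levels are normalized log2 signals, and a log2 change is the difference between 2 group means with the standard error (SE) of the limma model. A gene was called when its adjusted p was under 0.05. Detected probes per array numbered 16681 to 18868 of 47323. Luminal prostate genes were present: 8 of 10 listed markers passed, and KRT8, KRT18, HOXB13, FOLH1, TMPRSS2 and EPCAM were detected on all 12 arrays. Their summed linear level was 8630 to 8900 with both drugs, 4420 to 5330 with Torin 1, 7220 to 7920 with R1881 and 3910 to 4530 with vehicle. None of 3 basal markers passed, and KRT5 and KRT14 were detected on 0 arrays. Of 8 stromal markers 5 passed (ACTA2, TAGLN, VIM, COL1A1 and S100A4), with summed levels of 438 to 472 with both drugs, 795 to 851 with Torin 1, 648 to 686 with R1881 and 509 to 522 with vehicle. Of 6 immune markers 2 passed (PTPRC and CD68), with summed levels of 86.1 to 102, 76.8 to 153, 105 to 113 and 79.5 to 82.1 in the same order of groups, and CD3E and CD14 were detected on 0 arrays. These sums moved with the groups, and their part in the results was not tested.

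The promoters were searched for the C/EBP-ATF response element, the composite site at which ATF4 and a C/EBP partner are known to bind, written as TGATGNAA and sought on both strands from 250 bases before to 50 after each RefSeq start (GRCh38.p14). Of the 43 genes, 36 had an entry, and 12 of these (33.3%) held the letters at 1 start or more, against 4.46% of all 27305 genes and 2.63% of the 9279 tested genes with an entry. Among the synthetases it was 7 of 16 (43.8%). The form TGATGCAA stood in 9 of the 36 genes (25%), against 1.08% of all genes and 0.711% of the tested genes. CACGTG, an E-box that does not overlap these letters, stood in 5 of 36 (13.9%), against 8.77% and 12.8%. The share of the E-box was thus near that of the tested genes. The 12 genes with the element were ATF3, CEBPG, CHAC1, ASNS, MTHFD1L, AARS1, CARS1, GARS1, IARS1, MARS1, NARS1 and TARS1. CHAC1 and CARS1 are not among the tested genes, and of the measured genes 10 held the element and 24 did not. The 43 genes were listed for their ties to ATF4 and amino acid supply, not drawn at random, so these shares only describe the list. The following 7 stretches are shown because these genes are described below and hold the element before a start. They lie at chr1:212565170-212565269 (ATF3, plus strand), chr19:33374025-33374112 (CEBPG, plus), chr7:97872423-97872522 (ASNS, minus), chr6:150866311-150866410 (MTHFD1L, plus), chr16:70289640-70289739 (AARS1, minus), chr7:30594799-30594877 (GARS1, plus) and chr9:92293698-92293756 (IARS1, minus). Each reads 5′ to 3′ in the direction of its gene, and the capitals mark the element.
ATF3: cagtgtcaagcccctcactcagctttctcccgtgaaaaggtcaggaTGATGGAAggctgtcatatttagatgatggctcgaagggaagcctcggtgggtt
CEBPG: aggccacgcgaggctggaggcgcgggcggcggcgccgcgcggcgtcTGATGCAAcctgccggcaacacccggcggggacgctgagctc
ASNS: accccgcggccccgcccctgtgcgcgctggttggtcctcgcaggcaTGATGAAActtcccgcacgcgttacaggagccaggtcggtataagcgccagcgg
MTHFD1L: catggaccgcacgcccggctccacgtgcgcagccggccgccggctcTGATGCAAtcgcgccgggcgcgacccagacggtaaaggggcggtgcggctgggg
AARS1: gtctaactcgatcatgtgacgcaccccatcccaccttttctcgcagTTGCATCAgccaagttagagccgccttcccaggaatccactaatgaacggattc
GARS1: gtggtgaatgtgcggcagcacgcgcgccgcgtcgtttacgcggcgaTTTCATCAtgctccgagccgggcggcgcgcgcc
IARS1: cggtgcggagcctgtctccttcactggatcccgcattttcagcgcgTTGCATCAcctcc
In AARS1, GARS1 and IARS1 the element lies on the opposite strand, so the capitals show its reverse complement. It began 191 bases before the start in ATF3, 42 in CEBPG, 68 in ASNS, 129 in MTHFD1L, 187 in AARS1, 33 in GARS1 and 13 in IARS1. The letters in ASNS are those of its known nutrient-sensing response element. A match describes the letters only, and genes without one in this window may carry it elsewhere.

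As a group the genes were lowest in cells given both drugs. The mean level with both drugs was the lowest of the 4 group means for 31 of the 41 genes (75.6%), against 30.7% of all genes tested. For 22 genes (53.7%) the 3 arrays with both drugs lay below all 9 other arrays, against 11.3% of all genes, and for 1 gene, VLDLR, they lay above them, against 10% of all genes. In bulk RNA such as this, fewer cells of a kind and less RNA per cell cannot be told apart.

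Both drugs were compared with vehicle to ask what the combined treatment did. Of the 41 genes 5 rose and 30 fell, against a background of 50.8% of all genes called (22.7% higher and 28.1% lower), and the median log2 change was -0.41, against -0.02 over all genes. The largest falls were those of DDIT4 (log2 change -3.33), PSAT1 (-2.86) and PHGDH (-2.04), and the largest rise was that of VLDLR (2.65). The lipoprotein receptor gene VLDLR rose with ATF3, CTH, CEBPB and SARS1.

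Both drugs against Torin 1 shows the response to androgen while mTOR was inhibited. Here 3 genes rose (VLDLR, CTH and ATF3) and 29 fell, with a background of 45% of genes called, 18.7% higher and 26.3% lower. The median log2 change was -0.50, against -0.05 over all genes. R1881 against vehicle shows the response to androgen without the inhibitor. There 7 genes rose and 15 fell, with a background of 37.2% (15.8% higher and 21.4% lower), and the median was -0.12, against -0.03. Of the 7 rises, 5 lost their call when arrays were scaled to equal medians instead of quantile normalized, with the direction kept (adjusted p = 0.0616 for SHMT1, 0.349 for CTH, 0.372 for PYCR1, 0.455 for TRIB3 and 0.486 for FARSA).

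Both drugs against R1881 shows the effect of Torin 1 in the presence of androgen. Of the 41 genes 4 rose (VLDLR, ATF4, DDIT3 and SARS1) and 25 fell, with a background of 45.4%, 23.1% higher and 22.3% lower, and the median was -0.41, against 0.01 over all genes. Torin 1 against vehicle shows its effect without androgen, and the balance was even there. The 7 rises were those of ATF4, DDIT3, CEBPG, CEBPB, STC2, SARS1 and LARS1, and the 7 falls those of DDIT4, SHMT1, CTH, MTHFD1, ASNS, ATF3 and TRIB3. The background was 31.8% (16.2% higher and 15.6% lower), so the share called was close to that of all genes, and the median was -0.04, against 0.02. Under median scaling 3 of the rises lost their call (adjusted p = 0.219 for CEBPG, 0.303 for CEBPB and 0.364 for LARS1). The comparisons with a common group share its arrays and are not independent of each other. Median scaling moved the median of all genes to -0.18 for R1881 and -0.06 for Torin 1 against vehicle, and to -0.16 and -0.20 for both drugs against Torin 1 and against vehicle. Under it 2 of the 41 genes rose and 18 fell with R1881, 4 rose and 10 fell with Torin 1, and with both drugs 3 rose and 32 fell against Torin 1 and 2 rose and 33 fell against vehicle. Of all 11517 genes, 848 rose and 3719 fell with R1881 under this scaling, and 801 and 1980 with Torin 1. With both drugs 1338 of all genes rose and 3631 fell against Torin 1, and 1289 and 4507 against vehicle. The median of the 41 minus that of all genes was -0.42 for both drugs against Torin 1 and -0.47 against vehicle under median scaling, and -0.45 and -0.39 under quantile normalization.

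**Figure D1:**
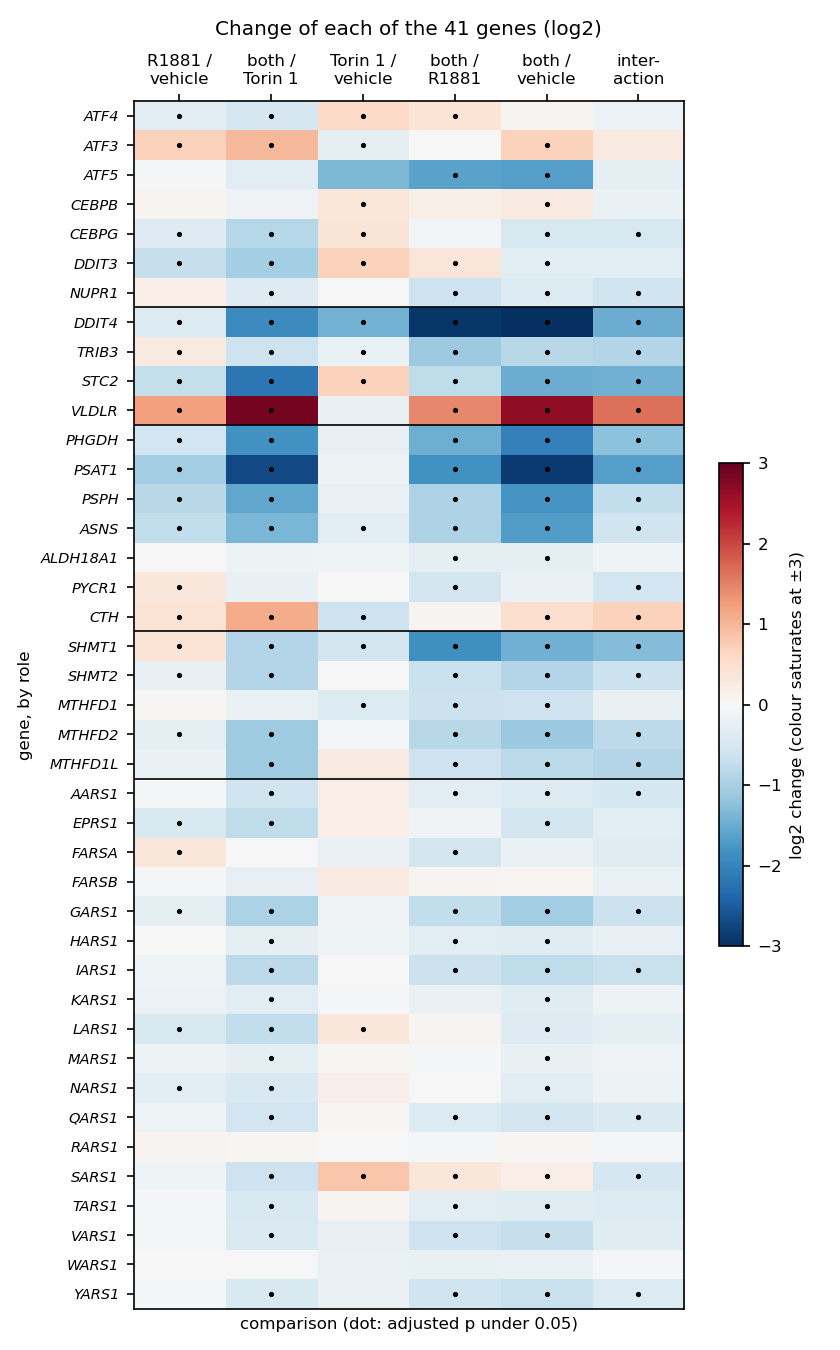
Log2 change of each of the 41 genes (rows, by role: transcription factors, stress proteins, amino acid enzymes, one-carbon enzymes, synthetases) in 6 comparisons (columns), with colour for the size and a dot for an adjusted p under 0.05. The columns with both drugs are mostly blue, with 29, 25 and 30 falls of 41 against Torin 1, R1881 and vehicle, while VLDLR stands out in red.

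Among the transcription factors, ATF4 RNA moved in opposite directions with the drugs. ATF4 had log2 levels of 11.97, 12.03 and 11.96 with both drugs, 12.51, 12.56 and 12.40 with Torin 1, 11.46, 11.59 and 11.70 with R1881, and 12.01, 11.91 and 11.80 with vehicle. The Torin 1 arrays were the highest and the R1881 arrays the lowest, with no overlap, and the arrays with both drugs lay within the vehicle range or just above it. ATF4 rose 1.5-fold with Torin 1 against vehicle (log2 change 0.58 ± 0.0846, SE, adjusted p = 0.000185) and fell 1.25-fold with R1881 (-0.32 ± 0.0846, adjusted p = 0.00841). It was 1.33-fold higher with both drugs than with R1881 (adjusted p = 0.00143) and 1.41-fold lower than with Torin 1 (adjusted p = 0.000289). Both drugs against vehicle gave a log2 change of 0.08 ± 0.0846 (adjusted p = 0.434). With the mean of its 3 kept probes in place of the brightest, this change was 0.18 and called (adjusted p = 0.0485). Its other 2 kept probes gave log2 changes of 1.05 and 0.18 for Torin 1 against vehicle. For both drugs against Torin 1 they gave -0.77 and -0.02, so the fall was not seen on the dimmest probe. Their interactions were -0.45 and 0.17.

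DDIT3 encodes CHOP, a factor induced by ATF4 in many stress settings. DDIT3 had log2 levels of 7.05, 6.85 and 6.83 with both drugs, 7.88, 8.12 and 7.76 with Torin 1, 6.55, 6.71 and 6.38 with R1881, and 7.14, 7.15 and 7.41 with vehicle. The 4 groups did not overlap, and their order was Torin 1, vehicle, both drugs and R1881 from the highest. DDIT3 rose 1.61-fold with Torin 1 against vehicle (log2 change 0.68 ± 0.117, adjusted p = 0.000673) and fell 1.61-fold with R1881 (-0.69 ± 0.117, adjusted p = 0.000422). It was 2.01-fold lower with both drugs than with Torin 1 (adjusted p = 9.81e-06). The rise of 0.36 with both drugs against R1881 (adjusted p = 0.0222) lost its call without R1881 replicate 1, R1881 replicate 3 or both-drug replicate 1 (adjusted p 0.0509 to 0.0948). The fall of 0.33 on the log2 scale against vehicle (adjusted p = 0.0328) lost it without vehicle replicate 3 or both-drug replicates 2 or 3 (adjusted p 0.0906 to 0.138), and with no detection filter (adjusted p = 0.0535).

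CEBPG and CEBPB encode C/EBP factors that can pair with ATF4. CEBPG had log2 levels of 7.45, 7.39 and 7.41 with both drugs, 8.17, 8.30 and 8.35 with Torin 1, 7.44, 7.47 and 7.62 with R1881, and 7.84, 7.98 and 7.86 with vehicle. The Torin 1 arrays were above, and the R1881 arrays with or without Torin 1 below, all vehicle arrays. CEBPG rose 1.3-fold with Torin 1 (adjusted p = 0.00283), fell 1.31-fold with R1881 (adjusted p = 0.00184) and was 1.81-fold lower with both drugs than with Torin 1 (adjusted p = 1.19e-06). CEBPB had log2 levels of 9.41, 9.19 and 9.26 with both drugs, 9.32, 9.47 and 9.39 with Torin 1, 9.12, 9.17 and 9.05 with R1881, and 9.04, 9.02 and 9.03 with vehicle. Its arrays with Torin 1, alone or with R1881, were all above the 6 without it. CEBPB rose 1.29-fold with Torin 1 (adjusted p = 0.00326) and 1.19-fold with both drugs against vehicle (adjusted p = 0.014), and the second call was lost without both-drug replicate 1 (adjusted p = 0.067) and under median scaling (log2 change 0.03, adjusted p = 0.869).

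ATF3, an early stress-induced repressor, had log2 levels of 8.37, 8.55 and 8.43 with both drugs, 7.57, 7.48 and 7.40 with Torin 1, 8.57, 8.39 and 8.40 with R1881, and 7.81, 7.78 and 7.66 with vehicle. The 6 arrays with R1881 were above the 6 without it. ATF3 rose 1.63-fold with R1881 against vehicle (log2 change 0.70 ± 0.0849, adjusted p = 2.11e-05), and 1.95-fold with both drugs against Torin 1 (adjusted p = 6.38e-07). The fall of 0.26 on the log2 scale with Torin 1 against vehicle (adjusted p = 0.0308) lost its call without vehicle replicates 1 or 2 or Torin 1 replicates 2 or 3 (adjusted p 0.0714 to 0.113), and in the authors' processed table (adjusted p = 0.0882).

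NUPR1, a small stress-induced nuclear protein gene, had log2 levels of 8.02, 7.88 and 7.99 with both drugs, 8.44, 8.43 and 8.18 with Torin 1, 8.71, 8.58 and 8.48 with R1881, and 8.40, 8.40 and 8.33 with vehicle. All arrays with both drugs were below the rest. NUPR1 was 1.54-fold lower with both drugs than with R1881 (adjusted p = 8.41e-05) and 1.33-fold lower than with vehicle (adjusted p = 0.00178). ATF5, which like ATF4 is controlled through its leader, varied widely within groups. ATF5 had log2 levels of 6.68, 7.21 and 4.77 with both drugs, 5.95, 6.99 and 6.67 with Torin 1, 8.40, 8.26 and 6.83 with R1881, and 8.54, 7.82 and 7.29 with vehicle. Its SE was 0.563, and 1 of the 3 arrays with both drugs was not above background. The fall with both drugs against vehicle (log2 change -1.66, adjusted p = 0.0244) lost its call without vehicle replicates 1 or 2 or both-drug replicate 3 (adjusted p 0.0518 to 0.112). That against R1881, where the arrays overlapped (-1.61, adjusted p = 0.0322), lost it without R1881 replicates 1 or 2 or both-drug replicate 3 (adjusted p 0.106 to 0.143). With a trended and robust variance both missed the threshold (adjusted p = 0.0822 against vehicle and 0.0986 against R1881).

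**Figure D2:**
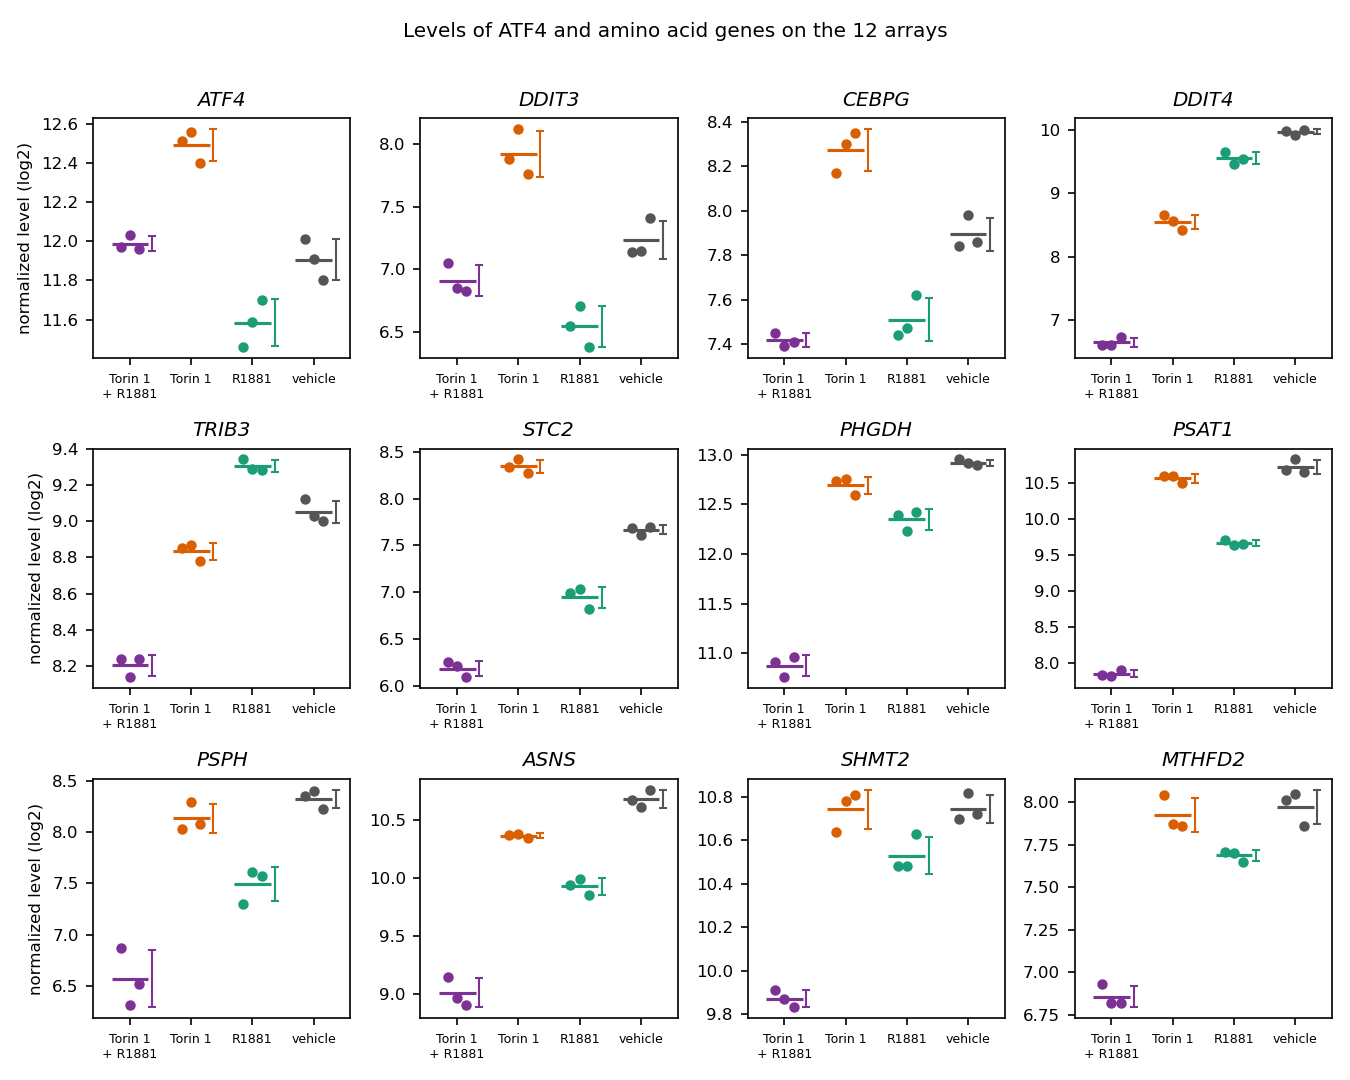
Normalized log2 levels of 12 genes on each array (points) in the 4 groups, with the group mean (line) and SD (bar, n = 3). The scale differs between panels and does not start at 0. For ATF4 the Torin 1 arrays are the highest, at 12.40 to 12.56, whereas for PHGDH, PSAT1, PSPH, ASNS, SHMT2 and MTHFD2 the arrays with both drugs lie below all others.

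Of the stress proteins downstream of ATF4, DDIT4, TRIB3 and STC2 were lowest with both drugs and VLDLR was highest. DDIT4, also called REDD1, is an inhibitor of mTOR complex 1. DDIT4 had log2 levels of 6.60, 6.60 and 6.73 with both drugs, 8.65, 8.57 and 8.42 with Torin 1, 9.66, 9.47 and 9.55 with R1881, and 9.98, 9.93 and 10.01 with vehicle. The 4 groups did not overlap. DDIT4 fell 2.68-fold with Torin 1 against vehicle (log2 change -1.42 ± 0.0833, adjusted p = 2.51e-08) and 1.33-fold with R1881 (-0.41 ± 0.0833, adjusted p = 0.00148). With both drugs it was 10.1-fold lower than with vehicle (-3.33 ± 0.0833, adjusted p = 1.17e-12). The fall with R1881 was larger under Torin 1 than without it (interaction -1.49 ± 0.118, adjusted p = 4.48e-06).

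STC2 encodes stanniocalcin 2, a secreted glycoprotein. STC2 had log2 levels of 6.25, 6.21 and 6.09 with both drugs, 8.34, 8.42 and 8.28 with Torin 1, 6.99, 7.03 and 6.82 with R1881, and 7.69, 7.61 and 7.70 with vehicle. Torin 1 alone thus gave the highest arrays and both drugs the lowest, with no overlap between any groups. STC2 rose 1.6-fold with Torin 1 against vehicle (log2 change 0.68 ± 0.0819, adjusted p = 3.85e-05), fell 1.65-fold with R1881 (adjusted p = 1.21e-05) and was 4.49-fold lower with both drugs than with Torin 1 (-2.17 ± 0.0819, adjusted p = 1.18e-10). TRIB3, a pseudokinase that dampens AKT and ATF4, had log2 levels of 8.24, 8.14 and 8.24 with both drugs, 8.85, 8.87 and 8.78 with Torin 1, 9.34, 9.29 and 9.28 with R1881, and 9.12, 9.03 and 9.0 with vehicle. Its R1881 arrays were the highest and its both-drug arrays the lowest. TRIB3 rose 1.19-fold with R1881 against vehicle (adjusted p = 0.0114) and was 1.54-fold lower with both drugs than with Torin 1 (adjusted p = 7.5e-06). Its fall of 0.21 on the log2 scale with Torin 1 against vehicle (adjusted p = 0.0351) lost its call without either of vehicle replicates 1 and 2 or any Torin 1 replicate (adjusted p 0.0545 to 0.122), and in a fit of only these 6 arrays (adjusted p = 0.0693).

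VLDLR, the receptor for very low density lipoprotein and reelin, had log2 levels of 8.51, 8.67 and 8.84 with both drugs, 5.80, 5.73 and 5.87 with Torin 1, 7.27, 7.19 and 7.27 with R1881, and 5.96, 6.02 and 6.09 with vehicle. The groups did not overlap, and those with R1881 were the 2 highest. VLDLR rose 2.33-fold with R1881 against vehicle (log2 change 1.22 ± 0.0883, adjusted p = 1.32e-07) and 7.33-fold with both drugs against Torin 1 (2.87 ± 0.0883, adjusted p = 1.53e-11). Torin 1 against vehicle gave -0.22 ± 0.0883 (adjusted p = 0.07). The interaction was 1.65 ± 0.125 (adjusted p = 2.92e-06).

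**Figure D3:**
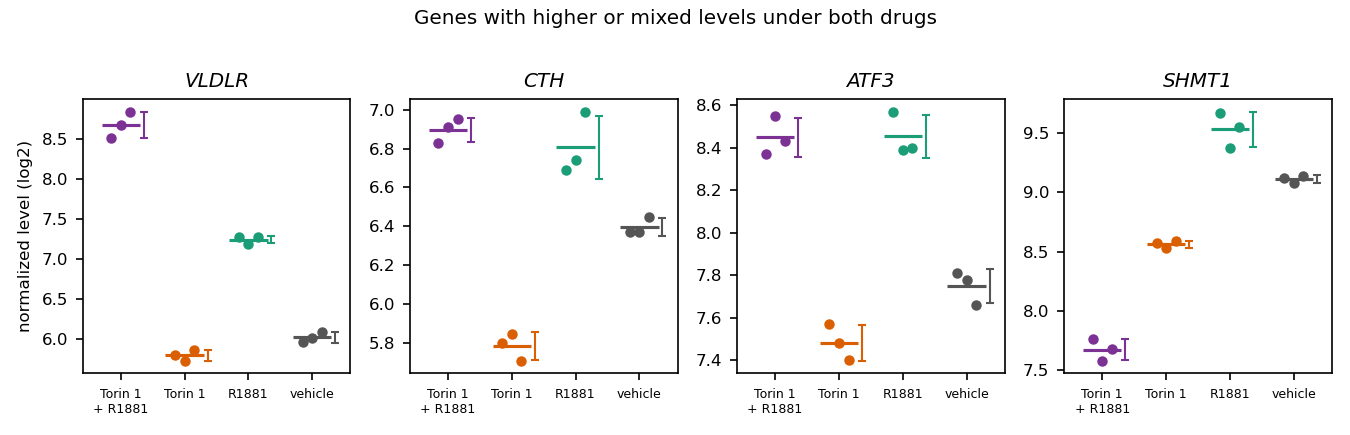
Normalized log2 levels of VLDLR, CTH, ATF3 and SHMT1 on each array (points), with the group mean (line) and SD (bar, n = 3), on scales that do not start at 0. The first 3 genes were higher with both drugs than with Torin 1, and SHMT1 was higher with R1881 than with vehicle but lowest with both drugs, at 7.58 to 7.76.

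The 3 enzymes of serine synthesis fell with R1881 and fell further with both drugs. PHGDH, the dehydrogenase of the first step, had log2 levels of 10.91, 10.76 and 10.96 with both drugs, 12.73, 12.75 and 12.59 with Torin 1, 12.39, 12.23 and 12.42 with R1881, and 12.95, 12.91 and 12.89 with vehicle. No groups overlapped, and the arrays with both drugs stood apart at the low end. PHGDH fell 1.48-fold with R1881 against vehicle (log2 change -0.57 ± 0.0833, adjusted p = 0.000118), was 3.52-fold lower with both drugs than with Torin 1 (-1.81 ± 0.0833, adjusted p = 8.23e-10) and was 4.12-fold lower than with vehicle (-2.04 ± 0.0833, adjusted p = 1.63e-10). Torin 1 against vehicle gave -0.23 ± 0.0833 and just missed the threshold (adjusted p = 0.0513), and 7 of 23 alternatives called it, 2 of them leaving out 1 array (adjusted p 0.0111 to 0.0476).

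PSAT1, the transaminase of the second step, had log2 levels of 7.83, 7.82 and 7.91 with both drugs, 10.59, 10.59 and 10.49 with Torin 1, 9.71, 9.63 and 9.65 with R1881, and 10.67, 10.82 and 10.64 with vehicle. Its groups did not overlap either, though the Torin 1 and vehicle arrays were close. PSAT1 fell 2.06-fold with R1881 against vehicle (log2 change -1.05 ± 0.0753, adjusted p = 1.25e-07), and with both drugs it was 6.52-fold lower than with Torin 1 (-2.71 ± 0.0753, adjusted p = 5.28e-12). Torin 1 against vehicle gave -0.15 ± 0.0753 (adjusted p = 0.145), which was called without background correction (adjusted p = 0.043) and in the authors' processed table (adjusted p = 0.0264). The interaction for PSAT1 was -1.66 ± 0.106 (adjusted p = 8.7e-07), the lowest of the 41.

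PSPH, the phosphatase of the last step, had log2 levels of 6.87, 6.32 and 6.52 with both drugs, 8.03, 8.29 and 8.08 with Torin 1, 7.30, 7.61 and 7.57 with R1881, and 8.35, 8.40 and 8.23 with vehicle. Torin 1 and vehicle arrays overlapped, and the arrays with both drugs were again the lowest. PSPH fell 1.78-fold with R1881 against vehicle (log2 change -0.84 ± 0.132, adjusted p = 0.000223) and was 2.96-fold lower with both drugs than with Torin 1 (-1.57 ± 0.132, adjusted p = 4.23e-07). Its other kept probe gave -0.25 for R1881 against vehicle and -1.11 for both drugs against Torin 1. The interaction of -0.73 ± 0.187 (adjusted p = 0.0189) lost its call without Torin 1 replicate 2 (adjusted p = 0.0504), under median scaling (0.0948) and in the authors' processed table (0.0528).

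ASNS, asparagine synthetase and a textbook ATF4 target, followed the serine enzymes. ASNS had log2 levels of 9.15, 8.97 and 8.91 with both drugs, 10.37, 10.38 and 10.34 with Torin 1, 9.94, 9.99 and 9.85 with R1881, and 10.67, 10.61 and 10.76 with vehicle. The groups did not overlap. ASNS fell 1.69-fold with R1881 against vehicle (log2 change -0.75 ± 0.0812, adjusted p = 7.15e-06) and was 2.56-fold lower with both drugs than with Torin 1 (-1.36 ± 0.0812, adjusted p = 1.29e-08). The other kept probe of ASNS gave -0.24 and -1.21 for these 2 comparisons. The fall of ASNS by 0.31 with Torin 1 against vehicle (adjusted p = 0.00987) was not seen on that probe, which gave 0.15. The mean of both probes was not called there (adjusted p = 0.399).

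The remaining amino acid enzymes were mixed. CTH, which makes cysteine from cystathionine, had log2 levels of 6.83, 6.91 and 6.95 with both drugs, 5.80, 5.85 and 5.71 with Torin 1, 6.69, 6.74 and 6.99 with R1881, and 6.37, 6.37 and 6.45 with vehicle. Arrays with R1881 were above those without it. CTH was 2.16-fold higher with both drugs than with Torin 1 (log2 change 1.11 ± 0.0878, adjusted p = 2.19e-07), fell 1.53-fold with Torin 1 against vehicle (-0.61 ± 0.0878, adjusted p = 0.000166) and rose 1.33-fold with R1881 (adjusted p = 0.00235). Against vehicle the rise with both drugs was 0.50 (adjusted p = 0.000309), which median scaling did not call (adjusted p = 0.175), and 1 of its other 2 kept probes, which were dimmer, gave 0.08. For both drugs against Torin 1 these 2 probes gave 0.36 and 0.57, and for Torin 1 against vehicle -0.28 and -0.07. PYCR1, the last enzyme of proline synthesis, had log2 levels of 7.94, 7.70 and 7.89 with both drugs, 8.21, 7.97 and 8.05 with Torin 1, 8.36, 8.53 and 8.29 with R1881, and 8.04, 8.08 and 8.04 with vehicle. It was highest with R1881 alone and lowest with both drugs. PYCR1 was 1.46-fold lower with both drugs than with R1881 (adjusted p = 0.000292), and its rise of 0.34 with R1881 against vehicle (adjusted p = 0.0103) lost its call without R1881 replicate 2 (adjusted p = 0.0521), in the authors' processed table (0.0937) and with the mean of its 3 kept probes (0.207). ALDH18A1, the enzyme before it, fell by 0.28 with both drugs against R1881 and by 0.29 against vehicle on the log2 scale, and was called in no other comparison.

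All 5 folate one-carbon genes fell with both drugs against R1881 and against vehicle. SHMT2, the mitochondrial serine hydroxymethyltransferase, had log2 levels of 9.91, 9.87 and 9.83 with both drugs, 10.64, 10.78 and 10.81 with Torin 1, 10.48, 10.48 and 10.63 with R1881, and 10.70, 10.82 and 10.72 with vehicle. The both-drug arrays were below the rest and the Torin 1 arrays overlapped vehicle. SHMT2 was 1.83-fold lower with both drugs than with Torin 1 (log2 change -0.87 ± 0.0771, adjusted p = 7.01e-07) and than with vehicle (-0.87 ± 0.0771, adjusted p = 4.91e-07). Its fall of 0.22 on the log2 scale with R1881 against vehicle was fragile (adjusted p = 0.0417). It lost its call without any 1 of 8 arrays, namely all 3 vehicle replicates, R1881 replicates 1 and 2, Torin 1 replicate 2 and both-drug replicates 2 and 3 (adjusted p 0.0506 to 0.137). It also lost it under median scaling (adjusted p = 0.0886), cyclic loess (0.243), in the authors' processed table (0.24), with a replicate block (0.0582) and in a fit of these 2 groups alone (0.081).

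SHMT1, its cytosolic counterpart, had log2 levels of 7.76, 7.58 and 7.68 with both drugs, 8.57, 8.53 and 8.59 with Torin 1, 9.67, 9.37 and 9.55 with R1881, and 9.12, 9.08 and 9.14 with vehicle. The groups did not overlap, and R1881 gave the highest arrays without Torin 1 and the lowest with it. SHMT1 rose 1.33-fold with R1881 against vehicle (log2 change 0.42 ± 0.0852, adjusted p = 0.00172) but was 1.85-fold lower with both drugs than with Torin 1 (-0.89 ± 0.0852, adjusted p = 1.56e-06). The interaction was -1.30 ± 0.12 (adjusted p = 1.43e-05). A second kept probe gave 0.54 and -0.57 for these 2 comparisons, and the third, the dimmest, -0.02 and -0.01.

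MTHFD2, the mitochondrial dehydrogenase and cyclohydrolase, had log2 levels of 6.93, 6.82 and 6.82 with both drugs, 8.04, 7.87 and 7.86 with Torin 1, 7.71, 7.70 and 7.65 with R1881, and 8.01, 8.05 and 7.86 with vehicle. Again the both-drug arrays were lowest, and Torin 1 alone overlapped vehicle. MTHFD2 was 2.09-fold lower with both drugs than with Torin 1 (log2 change -1.06 ± 0.0803, adjusted p = 1.39e-07), and its fall of 0.28 with R1881 against vehicle (adjusted p = 0.0133) lost its call without vehicle replicate 2 (adjusted p = 0.0569). MTHFD1L, the mitochondrial formate producer, had log2 levels of 5.85, 6.19 and 5.77 with both drugs, 7.18, 6.74 and 7.08 with Torin 1, 6.29, 6.63 and 6.74 with R1881, and 6.78, 6.86 and 6.58 with vehicle. It was lowest with both drugs and overlapped between R1881 and vehicle. MTHFD1L was 2.08-fold lower with both drugs than with Torin 1 (-1.06 ± 0.149, adjusted p = 5.84e-05). MTHFD1, the cytosolic trifunctional enzyme, had log2 levels of 5.78, 5.58 and 5.63 with both drugs, 5.89, 5.94 and 5.76 with Torin 1, 6.31, 6.30 and 6.29 with R1881, and 6.30, 6.36 and 6.16 with vehicle. The 6 arrays with Torin 1 were below the 6 without it. MTHFD1 fell 1.33-fold with Torin 1 against vehicle (adjusted p = 0.00217) and was 1.56-fold lower with both drugs than with R1881 (adjusted p = 3.39e-05), whereas R1881 alone gave 0.03 (adjusted p = 0.841).

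Most of the 18 cytosolic tRNA synthetases fell with both drugs against Torin 1 and against vehicle. With both drugs 0 rose and 14 fell against Torin 1 (26.3% of all genes were lower), 1 rose and 9 fell against R1881 (22.3% lower), and 1 rose and 13 fell against vehicle (28.1% lower). The median log2 changes were -0.46, -0.28 and -0.37 in these 3 comparisons. With Torin 1 against vehicle 2 rose and 0 fell, where 16.2% of all genes were higher and 15.6% lower, and with R1881 against vehicle 1 rose and 4 fell, where 15.8% were higher and 21.4% lower, so that the share that fell with R1881 was near that of all genes. FARSB, RARS1 and WARS1 were called in none of the comparisons, although under alternatives WARS1 was called with both drugs against R1881 and against vehicle and FARSB with both drugs against Torin 1 (adjusted p down to 0.00619, 0.0157 and 0.0318). In the multisynthetase complex, which holds 7 of these enzymes, 6 fell with both drugs against Torin 1 (median -0.57), and of the 11 others 8 fell (median -0.46).

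GARS1 charges glycine and had the largest fall. GARS1 had log2 levels of 9.42, 9.61 and 9.45 with both drugs, 10.41, 10.46 and 10.45 with Torin 1, 10.09, 10.23 and 10.39 with R1881, and 10.48, 10.64 and 10.50 with vehicle. The groups did not overlap, but the Torin 1 and vehicle arrays nearly touched. GARS1 was 2.06-fold lower with both drugs than with vehicle (log2 change -1.04 ± 0.0898, adjusted p = 3.76e-07). Its fall of 0.30 with R1881 against vehicle (adjusted p = 0.0171) lost its call without vehicle replicate 2 or R1881 replicate 1 (adjusted p 0.0723 to 0.074) and with cyclic loess (0.0724). IARS1, which charges isoleucine, had log2 levels of 8.20, 8.21 and 8.22 with both drugs, 9.04, 8.98 and 8.98 with Torin 1, 8.89, 8.71 and 8.97 with R1881, and 8.99, 9.05 and 8.88 with vehicle. Only the both-drug arrays were apart from vehicle. IARS1 was 1.73-fold lower with both drugs than with Torin 1 (-0.79 ± 0.0817, adjusted p = 3.26e-06). AARS1, which charges alanine, had log2 levels of 11.18, 11.42 and 11.12 with both drugs, 11.86, 11.85 and 11.80 with Torin 1, 11.59, 11.54 and 11.59 with R1881, and 11.66, 11.68 and 11.60 with vehicle. Both drugs gave its lowest and Torin 1 its highest arrays. AARS1 was 1.51-fold lower with both drugs than with Torin 1 (-0.60 ± 0.0832, adjusted p = 5.4e-05).

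SARS1, the seryl-tRNA synthetase, was the synthetase that rose most with Torin 1. SARS1 had log2 levels of 8.88, 8.80 and 8.87 with both drugs, 9.43, 9.42 and 9.60 with Torin 1, 8.49, 8.59 and 8.46 with R1881, and 8.60, 8.64 and 8.68 with vehicle. All 4 groups were apart. SARS1 rose 1.79-fold with Torin 1 against vehicle (log2 change 0.84 ± 0.0767, adjusted p = 2.69e-06) and was 1.55-fold lower with both drugs than with Torin 1 (adjusted p = 1.47e-05). It was 1.26-fold higher with both drugs than with R1881 (adjusted p = 0.00294), which median scaling did not call (adjusted p = 0.0717). The rise of 0.21 with both drugs against vehicle (adjusted p = 0.0374) lost its call without vehicle replicates 1 or 2 or both-drug replicates 1 or 3 (adjusted p 0.0759 to 0.107), with a replicate block (0.0543) and in the authors' processed table (0.0759), and turned to -0.04 under median scaling (0.794).

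LARS1, the leucyl-tRNA synthetase, which also senses leucine for mTOR complex 1, had log2 levels of 8.78, 8.63 and 8.77 with both drugs, 9.49, 9.34 and 9.52 with Torin 1, 8.60, 8.61 and 8.69 with R1881, and 9.11, 9.18 and 9.03 with vehicle. The R1881 arrays, with or without Torin 1, were below all others. LARS1 rose 1.27-fold with Torin 1 (adjusted p = 0.00523) and fell 1.38-fold with R1881 (adjusted p = 0.000431), both against vehicle. QARS1, for glutamine, had log2 levels of 10.81, 10.68 and 10.79 with both drugs, 11.36, 11.33 and 11.31 with Torin 1, 11.21, 11.04 and 11.26 with R1881, and 11.38, 11.23 and 11.31 with vehicle. It was 1.49-fold lower with both drugs than with Torin 1 (adjusted p = 5.17e-05), and the other 3 groups lay close together. YARS1, for tyrosine, had log2 levels of 9.18, 9.16 and 9.18 with both drugs, 9.65, 9.55 and 9.70 with Torin 1, 9.80, 9.76 and 9.74 with R1881, and 9.76, 9.92 and 9.82 with vehicle. It was 1.58-fold lower with both drugs than with vehicle (adjusted p = 4.36e-06), and R1881 overlapped vehicle. FARSA, a subunit of the phenylalanyl-tRNA synthetase, had log2 levels of 6.92, 6.83 and 6.70 with both drugs, 6.81, 6.75 and 6.92 with Torin 1, 7.41, 7.41 and 7.28 with R1881, and 6.92, 7.05 and 7.07 with vehicle. FARSA rose 1.28-fold with R1881 against vehicle (adjusted p = 0.00497) and was 1.46-fold lower with both drugs than with R1881 (adjusted p = 0.000144), and its R1881 arrays were above all others.

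**Figure D4:**
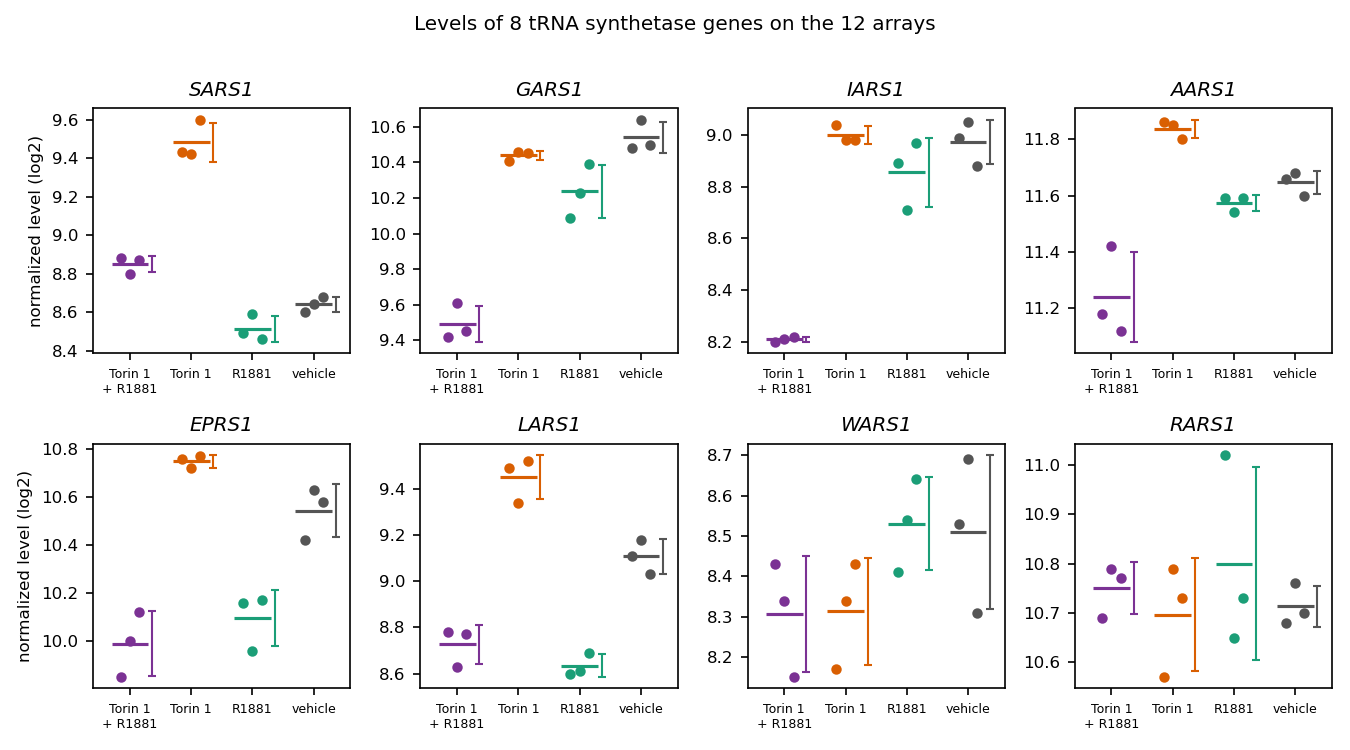
Normalized log2 levels of 8 tRNA synthetase genes on each array (points), with the group mean (line) and SD (bar, n = 3), on scales that do not start at 0. SARS1 was highest with Torin 1, at 9.42 to 9.60, GARS1, IARS1 and AARS1 were lowest with both drugs, and the groups of WARS1 and RARS1 overlapped.

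The other synthetases are given by their changes. Against Torin 1, both drugs lowered EPRS1 (log2 change -0.76), NARS1 (-0.46), TARS1 (-0.46), VARS1 (-0.43), KARS1 (-0.33), MARS1 (-0.27) and HARS1 (-0.26). Of these, EPRS1 (-0.45) and NARS1 (-0.31) also fell with R1881 alone. The fall of KARS1, whose arrays overlapped, lost its call without Torin 1 replicates 1 or 3 or both-drug replicates 2 or 3 (adjusted p 0.0723 to 0.13) and in a fit of these 2 groups alone (0.058), and that of HARS1 lost it without Torin 1 replicate 1 (0.053) and with cyclic loess (0.0717). VARS1 rested on its brighter probe: the other, at a mean log2 level of 5.09 against 9.05, gave 0.59 for both drugs against Torin 1. With the mean of both probes its 3 falls with both drugs lost their calls (adjusted p = 0.355 against R1881, 0.452 against Torin 1, where the change turned to 0.08, and 0.526 against vehicle). The calls of KARS1 and MARS1 for both drugs against vehicle were lost without vehicle replicate 2 (KARS1) or 1 (MARS1) or both-drug replicate 3 (adjusted p 0.0522 to 0.0696 for KARS1 and 0.0531 to 0.0632 for MARS1). The fall of TARS1 with both drugs against R1881 lost its call without R1881 replicate 3 (adjusted p = 0.0506).

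The interaction asks whether the response to R1881 differed with and without Torin 1, and its 2 underlying responses share no arrays. Of the 41 genes 22 were called, 2 with a positive interaction (VLDLR and CTH) and 20 with a negative one, with a background of 15% of genes called, 7.87% positive and 7.09% negative. The median interaction was -0.40, against -0.01 over all genes. For 38 of 41 genes the response to R1881 was the lower one under Torin 1, against 5856 of all 11517 genes. Median scaling called 12 of the 41, 2 positive and 10 negative, and 546 positive and 271 negative of all 11517 genes. PHGDH responded to R1881 with a log2 change of -1.81 under Torin 1 and -0.57 without it, GARS1 with -0.94 and -0.30, and IARS1 with -0.79 and -0.12. For TRIB3 and SHMT1 the response was a fall under Torin 1 (-0.63 and -0.89) and a rise without it (0.26 and 0.42). Both rises lost their call under median scaling, and the dimmest kept probe of SHMT1 gave -0.01 under Torin 1 and -0.02 without it. ATF4 itself was not called (interaction -0.18 ± 0.12, adjusted p = 0.367), except in the authors' processed table (-0.27, adjusted p = 0.0442), and neither was DDIT3 (-0.32 ± 0.165, adjusted p = 0.218), which that table did call (-0.39, adjusted p = 0.0197). All 18 synthetases had an interaction below 0, and 6 were called.

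**Figure D5:**
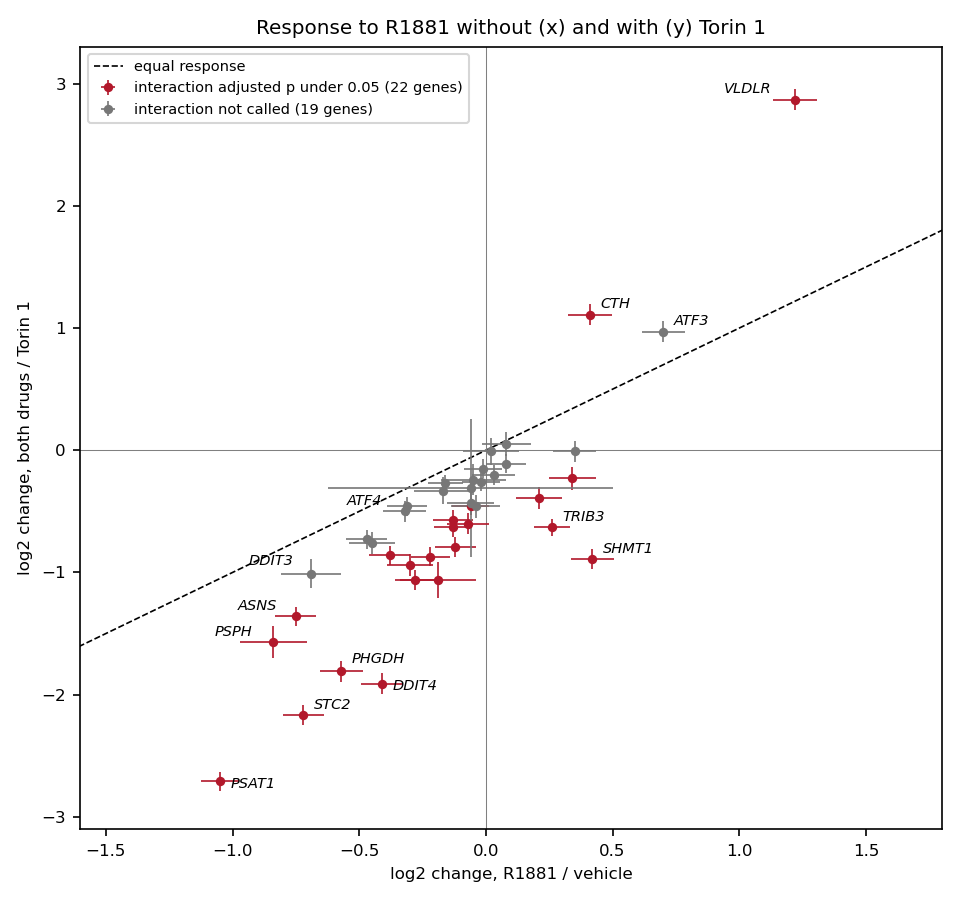
Log2 change with both drugs against Torin 1 (y axis) and with R1881 against vehicle (x axis) for the 41 genes (points), with SE bars and the line of equal response. Of the 41 points 38 lie below the line, 22 were called in the interaction (red), and VLDLR and CTH are the called points above it.

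Genes with the response element in their promoter were set beside those without it, as a description. Of the 10 measured genes with it, 1 rose and 9 fell with both drugs against Torin 1 (median log2 change -0.69), and of the 24 without it 2 rose and 14 fell (median -0.41), where 18.7% of all genes were higher and 26.3% lower. Against R1881, 0 rose and 6 fell with the element (median -0.33), and 4 rose and 13 fell without it (-0.32). There 23.1% of all genes were higher and 22.3% lower. Against vehicle, 1 rose and 9 fell with the element (-0.44), and 4 rose and 15 fell without it (-0.37). There 22.7% were higher and 28.1% lower. The medians with and without the element were -0.17 and -0.05 for R1881 alone, and 0.07 and -0.13 for Torin 1 alone. In the interaction 6 of 10 with the element were called, 0 positive, with a median of -0.50, and 11 of 24 without it were called (2 positive and 9 negative), with a median of -0.28, where 15% of all genes were called. The genes that fell furthest with both drugs against vehicle, DDIT4, PSAT1 and PHGDH, did not hold these letters in the window searched.

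Other ATF4 targets did not all move with these genes. Of 20 listed, 14 were tested, and with both drugs 5 rose and 7 fell against Torin 1, 2 rose and 5 fell against R1881, and 3 rose and 7 fell against vehicle. R1881 alone raised 3 and lowered 4, and Torin 1 alone raised 3 and lowered 2. Over all genes, 18.7% rose and 26.3% fell with both drugs against Torin 1, 23.1% and 22.3% against R1881, and 22.7% and 28.1% against vehicle. With R1881 alone 15.8% rose and 21.4% fell, and with Torin 1 alone 16.2% and 15.6%. SLC38A2, a carrier of small neutral amino acids, rose in all 5 pairwise comparisons, by 1.53 on the log2 scale with both drugs against Torin 1 (adjusted p = 5.52e-08), 1.38 against R1881 (2.47e-07), 2.10 against vehicle (1.36e-09), 0.57 with Torin 1 against vehicle (0.00119) and 0.72 with R1881 (0.000121). GDF15, a secreted stress signal, rose with both drugs by 0.97 against R1881 (4.46e-07) and 0.73 against vehicle (3.9e-06). SLC7A5, the large neutral amino acid carrier, was not above background on any array with R1881, so that it was at least 1.72-fold lower with both drugs than with Torin 1, at least 1.82-fold lower than with vehicle, and at least 1.86-fold lower with R1881 than with vehicle. The glycine carrier SLC6A9 was not above background with both drugs and was at least 2.58-fold lower than with Torin 1, at least 1.35-fold lower than with R1881 and at least 1.82-fold lower than with vehicle. It rose by 0.50 with Torin 1 (adjusted p = 0.00111) and fell by 0.43 with R1881 (0.00221, or 0.185 with the mean of its 2 kept probes). XPOT, the exporter of tRNA from the nucleus, fell with both drugs by 0.71 against Torin 1 (7.78e-05). EIF4EBP1, a translation repressor, fell by 0.74 with both drugs against R1881 (7.46e-06) and by 0.34 with Torin 1 (0.00616). The transaminase gene GOT1 rose by 0.65 with both drugs against Torin 1 (6.36e-05) and fell by 0.58 with Torin 1 (0.000394), and SLC1A5, a glutamine carrier, rose by 0.68 with R1881 (0.0054).

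Most tRNA synthetases of mitochondria are encoded by other genes. Of 17 listed 15 were tested, and with both drugs 1 rose and 5 fell against Torin 1, 1 rose and 7 fell against R1881, and 2 rose and 7 fell against vehicle. Torin 1 alone raised 2 and lowered 3, and R1881 alone raised 2 and lowered 3. The shares of all genes that rose and fell were 18.7% and 26.3%, 23.1% and 22.3%, and 22.7% and 28.1% with both drugs, in turn. They were 16.2% and 15.6% with Torin 1 alone, and 15.8% and 21.4% with R1881 alone. VARS2 fell by 0.86 on the log2 scale with both drugs against Torin 1 (adjusted p = 7.24e-07), 0.87 against vehicle (4.63e-07) and 0.77 with R1881 alone (2.92e-06). LARS2 fell by 0.73 with both drugs against R1881 (1.54e-05), 0.82 against vehicle (2.73e-06) and 0.59 with Torin 1 alone (0.000193). SARS2 rose by 0.44 with Torin 1 (adjusted p = 0.000618, or 0.161 under median scaling) and fell by 0.68 with both drugs against Torin 1 (5.64e-06). RARS2 rose by 0.70 with both drugs against Torin 1 (5.34e-05). NARS2 fell by 0.55 with both drugs against R1881 (0.000239), and YARS2 fell by 0.44 with Torin 1 against vehicle (0.00576). The rises of MARS2 (0.35) and TARS2 (0.27) with R1881 and of IARS2 (0.37) with Torin 1, all against vehicle, lost their calls under median scaling (adjusted p = 0.515, 0.81 and 0.263). TARS3, the threonyl-tRNA synthetase paralogue, was the tested gene of 5 scaffold and remaining cytosolic genes listed, and it fell by 1.32 with R1881 (2.21e-07) but rose by 0.62 with both drugs against R1881 (0.000211).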

How the data were processed

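The authors deposited bead-summary signal intensity values for 47323 probes on 12 Illumina HumanHT-12 V4 arrays, not normalized, with a detection p-value per probe and array, per the file headers. They also deposited a processed table, which from its values holds log2 signals with nearly equal medians, by a method not given in the sources used here. Background was corrected with limma 3.58.1 (R 4.3.3) by normexp on control levels inferred from the detection p (offset 16), arrays were quantile normalized, and values were put on a log2 scale. Of 20413 probes detected on at least 3 arrays, 15137 had 1 gene in the platform annotation, giving 11517 genes. The limma model fitted 4 group means (8 residual degrees of freedom), with Benjamini-Hochberg adjustment over all genes and a threshold of 0.05, and was tested on simulated data. With 3 arrays against 3 an exact permutation test cannot go below p = 0.1. The number of arrays limits the precision, and replicates correlated at 0.9918 or more within groups.

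Values on every array were given for ATF4, DDIT3, PHGDH, PSAT1, ASNS, SHMT2 and MTHFD2, for the 6 called genes with the largest change each way and no overlap in each pairwise comparison, and for genes called in the interaction, and LARS1 was added after its values were seen. From each other list genes with small adjusted p each way were named, though not strictly by rank and not for every comparison. The 43 genes, the other lists and the tests were chosen with earlier results of these data known. Replicate numbers did not pair the arrays: deviations of arrays with the same number in different groups correlated at -0.135 to 0.18. In all, 23 alternatives were tried. Promoter sequences came from RefSeq (GRCh38.p14), which held 36 of the 43 genes. A fold against a group not above background is a lower bound, taken against the higher of each array's lowest detected signal and the probe's own signal.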

Additional observations from a re-analysis of the deposited data

Results flagged for a closer look

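An interaction called in the limma model is given here for 33 of the genes compared. It is the log2 response to R1881 under Torin 1 minus that without it. Of the 41 genes described above, 2 were called with a positive interaction and 20 with a negative one. Over all 11517 genes, 7.87% were positive and 7.09% negative. Among the serine, amino acid and one-carbon enzymes the interaction was -1.66 for PSAT1, -1.24 for PHGDH, -0.73 for PSPH, -0.60 for ASNS, -0.57 for PYCR1, -1.30 for SHMT1, -0.65 for SHMT2, -0.78 for MTHFD2 and -0.87 for MTHFD1L, and 0.70 for CTH. Among the factors and stress proteins it was -0.47 for CEBPG, -0.60 for NUPR1, -1.49 for DDIT4, -0.88 for TRIB3, -1.45 for STC2 and 1.65 for VLDLR. Among the cytosolic synthetases it was -0.52 for AARS1, -0.64 for GARS1, -0.67 for IARS1, -0.44 for QARS1, -0.51 for SARS1 and -0.40 for YARS1. The call of PSPH was lost without Torin 1 replicate 2 (adjusted p = 0.0504) and that of YARS1 without Torin 1 replicate 3 (adjusted p = 0.0502). The call of PYCR1 rested on its brightest probe: the mean of its 3 kept probes gave -0.22 (adjusted p = 0.271), and median scaling did not call it (adjusted p = 0.0714). For CTH the 2 dimmer kept probes gave smaller interactions, of 0.09 and 0.30. The other genes were compared for context. Of 14 other ATF4 targets tested, 3 were called positive and 4 negative, counting SLC6A9. Of 15 mitochondrial synthetases tested, 1 was positive and 2 were negative. Of 16 genes that act on eIF2, 1 was positive and 0 were negative. Of 10 further genes of folate, glycine and proline metabolism, 0 were called. TARS3 was the 1 gene tested of its list. Among the context genes the interaction was -0.76 for XPOT, -0.40 for EIF4EBP1 and -0.34 for CBS, which makes cystathionine. It was 0.42 for GOT1, 0.81 for SLC38A2, 0.65 for GDF15, 0.59 for PPP1R15A and 0.91 for TARS3. The calls of EIF4EBP1, CBS and GOT1 were lost under median scaling and without any 1 of 9, 10 and 9 arrays (adjusted p 0.0564 to 0.0762 for EIF4EBP1, 0.0598 to 0.0839 for CBS and 0.0573 to 0.101 for GOT1). SLC6A9 was not above background with both drugs, so no interaction is given for it. The mitochondrial synthetase SARS2 had -0.44, NARS2 -0.46 and RARS2 0.48. The call of RARS2 was lost without any 1 of 8 arrays (adjusted p 0.0516 to 0.0777) and that of NARS2 without any 1 of 7 (adjusted p 0.0539 to 0.065), and median scaling did not call SARS2 (adjusted p = 0.323).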

How the results depend on the processing

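Over all values of the 41 genes in the 6 comparisons under 23 alternatives, 5420 stayed on their side of the threshold, 97 lost a call, 98 gained one and 2 called values turned: VARS1 for both drugs against Torin 1 (0.08 with the mean of its kept probes) and SARS1 for both drugs against vehicle (-0.04 under median scaling). Median scaling moved the median of the 41 genes to -0.585 for both drugs against Torin 1, -0.672 for both drugs against vehicle, -0.161 for Torin 1 and -0.287 for R1881, and leaving out background correction moved that for both drugs against R1881 to -0.311. It kept 32 of 32 calls for both drugs against Torin 1, 28 of 29 against R1881, 32 of 35 against vehicle, 11 of 14 for Torin 1, 16 of 22 for R1881 and 12 of 22 interactions. The 10 interactions lost had adjusted p from 0.0611 (NUPR1) to 0.259 (YARS1), and over all genes it called 546 positive and 271 negative interactions, against 906 and 816. The share of higher genes among calls over all genes was, under median scaling and quantile normalization, 26.9% and 41.6% for both drugs against Torin 1, 22.2% and 44.7% for both drugs against vehicle, 28.8% and 50.9% for Torin 1, 18.6% and 42.4% for R1881, and 66.8% and 52.6% for the interaction. The cause was not tested.

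Leaving out 1 array at a time gave 30 to 34 called genes and medians of -0.559 to -0.499 for both drugs against Torin 1, 27 to 29 and -0.475 to -0.367 against R1881, 30 to 35 and -0.47 to -0.407 against vehicle, 12 to 16 and -0.077 to -0.009 for Torin 1, 19 to 22 and -0.13 to -0.068 for R1881, and 21 to 23 and -0.434 to -0.37 for the interaction. The replicate numbers are shared by number only, since the deviations of 4 of the 12 arrays were closest to those of their own number, and a replicate block gave 3 higher and 29 lower for both drugs against Torin 1, 4 and 25 against R1881, 4 and 30 against vehicle, 7 and 9 for Torin 1, 7 and 14 for R1881 and 2 and 20 for the interaction. The fit of only the groups compared could not be made for the interaction, which uses all groups. The dimmer genes lie closest to background. MTHFD1, CTH, MTHFD1L and VLDLR had the lowest mean log2 levels (6.03, 6.47, 6.56 and 6.93), and ATF5 was not above background on 1 array.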

Other observations

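The genes that act on eIF2, upstream of ATF4, did not move as 1 group. Of 16 tested, 4 rose and 3 fell with both drugs against Torin 1, 3 rose and 4 fell against R1881, and 5 rose and 3 fell against vehicle, while Torin 1 alone raised 1 and lowered 1 and R1881 alone raised 3 and lowered 2. The shares of all genes that rose and fell were 18.7% and 26.3%, 23.1% and 22.3%, and 22.7% and 28.1% with both drugs, in turn. They were 16.2% and 15.6% with Torin 1 alone, and 15.8% and 21.4% with R1881 alone. EIF2AK3, which encodes the eIF2 kinase PERK, rose with both drugs by 0.78 on the log2 scale against Torin 1 (adjusted p = 6.05e-05), 0.56 against R1881 (0.000957) and 0.87 against vehicle (1.63e-05). PPP1R15A, which encodes GADD34 and directs the phosphatase that reverses eIF2 phosphorylation, rose with both drugs by 0.91 against R1881 (1.45e-05) and 0.80 against vehicle (2.88e-05). EIF2S3, the gamma subunit of eIF2, fell by 0.53 with both drugs against Torin 1 (0.00018) and by 0.55 with R1881 alone (0.000193). EIF2B5, a subunit of the exchange factor of eIF2, fell by 0.48 with both drugs against R1881 (0.000567), and EIF2S1, the alpha subunit of eIF2, by 0.40 (0.00478). EIF2AK1, the kinase HRI, fell by 0.23 with R1881 against vehicle (adjusted p = 0.0382), a call lost without any 1 of the vehicle replicates or without R1881 replicates 1 or 2 (adjusted p 0.0517 to 0.126). EIF2AK4, the kinase GCN2, fell by 0.30 with both drugs against Torin 1 (adjusted p = 0.0194), a call lost without Torin 1 replicate 3 or both-drug replicate 2 (adjusted p 0.0537 to 0.0901). The rises of EIF2B2 by 0.36 and EIF2B4 by 0.27 with both drugs against Torin 1 lost their calls under median scaling (adjusted p = 0.0947 and 0.107).

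Further genes of folate, glycine and proline metabolism also moved both ways. Of 17 listed 10 were tested, and with both drugs 2 rose and 3 fell against Torin 1, 1 rose and 5 fell against R1881, and 2 rose and 5 fell against vehicle, while Torin 1 alone raised 1 and lowered 4 and R1881 alone raised 4 and lowered 1. The shares of all genes that rose and fell were 18.7% and 26.3%, 23.1% and 22.3%, and 22.7% and 28.1% with both drugs, in turn. They were 16.2% and 15.6% with Torin 1 alone, and 15.8% and 21.4% with R1881 alone. GLDC, the decarboxylase of the glycine cleavage system, was not above background with both drugs and was at least 2.26-fold lower than with Torin 1, at least 2.07-fold lower than with R1881 and at least 4.55-fold lower than with vehicle. Each drug alone lowered GLDC against vehicle, Torin 1 by 1.01 (adjusted p = 9.46e-07) and R1881 by 1.13 (adjusted p = 1.51e-07) on the log2 scale. TYMS, thymidylate synthase, fell with both drugs, with log2 changes of -1.17 against Torin 1 (adjusted p = 0.000841), -2.13 against R1881 (5.66e-06) and -2.48 against vehicle (6.71e-07). Torin 1 alone also lowered TYMS against vehicle (-1.32, adjusted p = 0.000702), while R1881 alone gave -0.35 (0.255). Its interaction was not called (-0.81, adjusted p = 0.109). ALDH4A1, a mitochondrial enzyme of proline breakdown, rose by 1.58 with both drugs against Torin 1 (3.5e-09) and by 1.77 with R1881 against vehicle (1.65e-09), and its fall of 0.51 with Torin 1 alone (0.00046) lost its call with the mean of its kept probes (0.097). AMT, the aminomethyltransferase of the same system as GLDC, rose by 0.89 with Torin 1 against vehicle (adjusted p = 0.00211). MTHFS, which recycles a folate form, rose by 0.48 with R1881 (0.000163).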
